A study of Mus musculus with 8 samples.

Results

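The 9 genes described here encode the 3 classical chains of collagen VI (Col6a1, Col6a2 and Col6a3), a network-forming chain (Col8a1), 3 chains of the fibril-associated kind (Col12a1, Col14a1 and Col16a1) and both multiplexins (Col15a1 and Col18a1). They were taken by name from the 18193 genes that had a probe set with a single symbol in the platform annotation. All 9 were measured, by 18 of the 45037 probe sets. The probe set with the highest mean over the 8 arrays stood for its gene, and the others are given beside it. RNA came from skin of the back of hairless mice (strain Hos:HR-1, all female, aged 10 weeks at sampling), with 4 arrays from mice on the AIN-93G control diet and 4 from mice on that diet with 2.0 g of fish-scale collagen hydrolysate added per 100 g, each for 1 week. The labels call the arrays biological replicates of their diet. The study housed 16 mice, 8 per diet and 4 to a cage, and the labels do not tie an array to a mouse or a cage, so no effect of the cage could be tested. With 4 arrays a diet, precision is limited by that number.

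Collagen VI is built from the products of 3 genes, whose chains join into a heterotrimer and then into beaded filaments that lie between the thick collagen fibrils of the dermis and close to basement membranes. Fibril-associated collagens carry short triple helices broken by other domains, sit on the surface of the fibrils and do not form fibrils of their own. The multiplexins, collagens XV and XVIII, belong to basement membrane zones, carry sugar chains and hold C-terminal parts (endostatin in collagen XVIII) that proteases can release. In skin most of these chains are made by fibroblasts, with contributions from vessel wall and epidermal cells.

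Col6a2 and Col6a1 are neighbours on mouse chromosome 10, with Col18a1 further along and only Pcbp3 and Slc19a1 as protein-coding genes between, in the RefSeq gene table of assembly GRCm38.p6. Col6a3 lies on chromosome 1. RefSeq promoter windows of 250 bases before to 50 after a start site (build GRCm38.p6, credited to that table) were found for 7 of the 9 genes, with 9 windows in all; Col12a1 and Col14a1 had none in the table. The windows of the 5 genes that varied together over the arrays (values below) are shown, each read 5′ to 3′ on the gene's strand. Capitals mark the hexamer CCCTCC, which was picked after the windows were seen, and the GC box GGGCGG, each on either strand, where matches may overlap.
Col6a1, chr10:76725995-76726294, minus strand: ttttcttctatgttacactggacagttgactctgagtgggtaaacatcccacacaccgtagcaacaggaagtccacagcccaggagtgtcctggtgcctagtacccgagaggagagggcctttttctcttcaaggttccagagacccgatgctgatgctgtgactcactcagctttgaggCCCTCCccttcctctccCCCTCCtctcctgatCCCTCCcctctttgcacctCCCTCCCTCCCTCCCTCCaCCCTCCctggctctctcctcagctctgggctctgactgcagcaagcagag
Col6a2 start site 1, chr10:76623355-76623654, minus strand: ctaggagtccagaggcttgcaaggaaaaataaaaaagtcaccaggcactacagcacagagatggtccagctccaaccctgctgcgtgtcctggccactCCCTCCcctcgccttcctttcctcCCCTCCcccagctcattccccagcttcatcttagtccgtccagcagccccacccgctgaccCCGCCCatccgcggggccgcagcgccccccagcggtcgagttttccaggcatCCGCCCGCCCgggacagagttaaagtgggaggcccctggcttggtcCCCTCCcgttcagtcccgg
Col6a2 start site 2, chr10:76623581-76623880, minus strand: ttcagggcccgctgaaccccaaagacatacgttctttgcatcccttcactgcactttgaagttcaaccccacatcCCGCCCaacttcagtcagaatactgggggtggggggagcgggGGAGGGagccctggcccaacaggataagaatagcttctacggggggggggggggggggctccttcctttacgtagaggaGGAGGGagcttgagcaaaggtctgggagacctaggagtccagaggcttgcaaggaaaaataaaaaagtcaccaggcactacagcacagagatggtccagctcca
Col6a3, chr1:90843922-90844221, minus strand: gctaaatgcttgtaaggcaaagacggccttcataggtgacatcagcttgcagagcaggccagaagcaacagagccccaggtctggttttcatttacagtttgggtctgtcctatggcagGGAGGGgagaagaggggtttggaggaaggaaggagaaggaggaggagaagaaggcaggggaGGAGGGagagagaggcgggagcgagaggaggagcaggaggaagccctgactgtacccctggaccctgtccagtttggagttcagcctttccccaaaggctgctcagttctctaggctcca
Col15a1, chr4:47207762-47208061, plus strand: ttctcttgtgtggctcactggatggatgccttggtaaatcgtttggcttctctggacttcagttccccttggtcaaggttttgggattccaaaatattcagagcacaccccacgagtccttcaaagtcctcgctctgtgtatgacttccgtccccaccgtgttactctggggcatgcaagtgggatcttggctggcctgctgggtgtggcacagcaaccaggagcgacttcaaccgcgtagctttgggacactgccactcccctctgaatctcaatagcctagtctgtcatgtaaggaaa
Col16a1, chr4:130047590-130047889, plus strand: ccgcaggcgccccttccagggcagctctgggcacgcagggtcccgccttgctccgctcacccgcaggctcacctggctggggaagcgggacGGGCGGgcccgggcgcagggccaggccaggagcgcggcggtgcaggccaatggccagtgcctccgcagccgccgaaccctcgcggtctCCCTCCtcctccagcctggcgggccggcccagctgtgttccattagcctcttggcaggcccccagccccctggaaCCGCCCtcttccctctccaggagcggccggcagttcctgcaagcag

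The 5 genes did not share a motif of those searched. The hexamer CCCTCC occurred 8 times in the Col6a1 window, 3 and 2 times in the windows of Col6a2, 2 times in that of Col6a3 and 1 time in that of Col16a1, and it was not in that of Col15a1. Of 32851 windows of this length, 39.2% held it at least once and 5.27% held 3 or more copies. GGGCGG was in 5 of the 9 member windows, against 35.7% of all windows, and in neither the Col6a1 nor the Col6a3 nor the Col15a1 window. TATAAA (13.6% of all windows) was in none of the 9, CCAAT (37.4%) was in those of Col16a1 and of Col18a1 start site 1, and TGANTCA, the AP-1 site (7.81%), was in that of Col6a1. These are matches of letters on both strands and were not tested as binding sites.

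For most probe sets the deposited log2 values differ very little between arrays. Highest and lowest array were 7.36e-06 apart for the median probe set, and the array medians lay between 8.1929 and 8.1932. How such a difference relates to a fold change in RNA is not known here. Differences are therefore given in log2 units as deposited and as multiples of the within-diet SD. By limma's moderated test over all genes, 0 genes passed an adjusted p of 0.05 (0% of 18193), and 635 (3.49%) had an unadjusted p under 0.05, none of them among the 9. Defining keratinocyte genes were bright in these samples, with all 8 markers between 10.76 and 14.39, and all 13 skeletal muscle markers lay between 9.99 and 13.99. The muscle list varied far more between arrays than the members did. Its summed levels ran from 157.9412 to 159.0256 in control and from 158.2251 to 158.8055 in collagen arrays. Those of the 9 members ran from 97.5968 to 97.5985 and from 97.5949 to 97.5985. The part of muscle RNA in the results was not tested. In such bulk samples, fewer cells of a type and less RNA per cell cannot be told apart.

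The main probe sets of the members all lay above 8.1932, the median of probe set means. In descending order of deposited value they were Col6a3 (12.77), Col6a2 (12.19), Col6a1 (11.57), Col12a1 (11.45), Col14a1 (11.14), Col18a1 (10.61), Col16a1 (10.30), Col8a1 (9.05) and Col15a1 (8.50). Each step in this order was larger than the spread of either neighbour over the arrays. Probe sets bind with different strength, so the order describes the deposited values and is no order of RNA amount. The members also differed in how far they varied: Col6a1 had a range of 0.00119 over the 8 arrays, above 97.2% of probe sets, whereas Col12a1 had one of 1.56e-05 and Col18a1 one of 3.99e-05, at the 65.0th and 78.3rd percentile.

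After 1 week of collagen hydrolysate no member differed beyond the spread between arrays. The collagen mean lay below the control mean in 8 of the 9 genes and above it in Col18a1, against 47.0% of all genes below. That share of all genes moved with the scaling, to 30.5% after quantile normalization and 5.38% after each array was centred on its median, while the members below numbered 5 and 7. The median difference was -0.58 within-diet SD over the 9 genes and 0.05 over all genes. Groups overlapped in all 9, where 2.01% of genes had no overlap between the diets and 0.671% had none with collagen lower. The lower side of these collagens was known from earlier results on the same arrays and is not independent evidence. Adjusted p by limma was 0.999 for each of the 9.

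**Figure D1:**
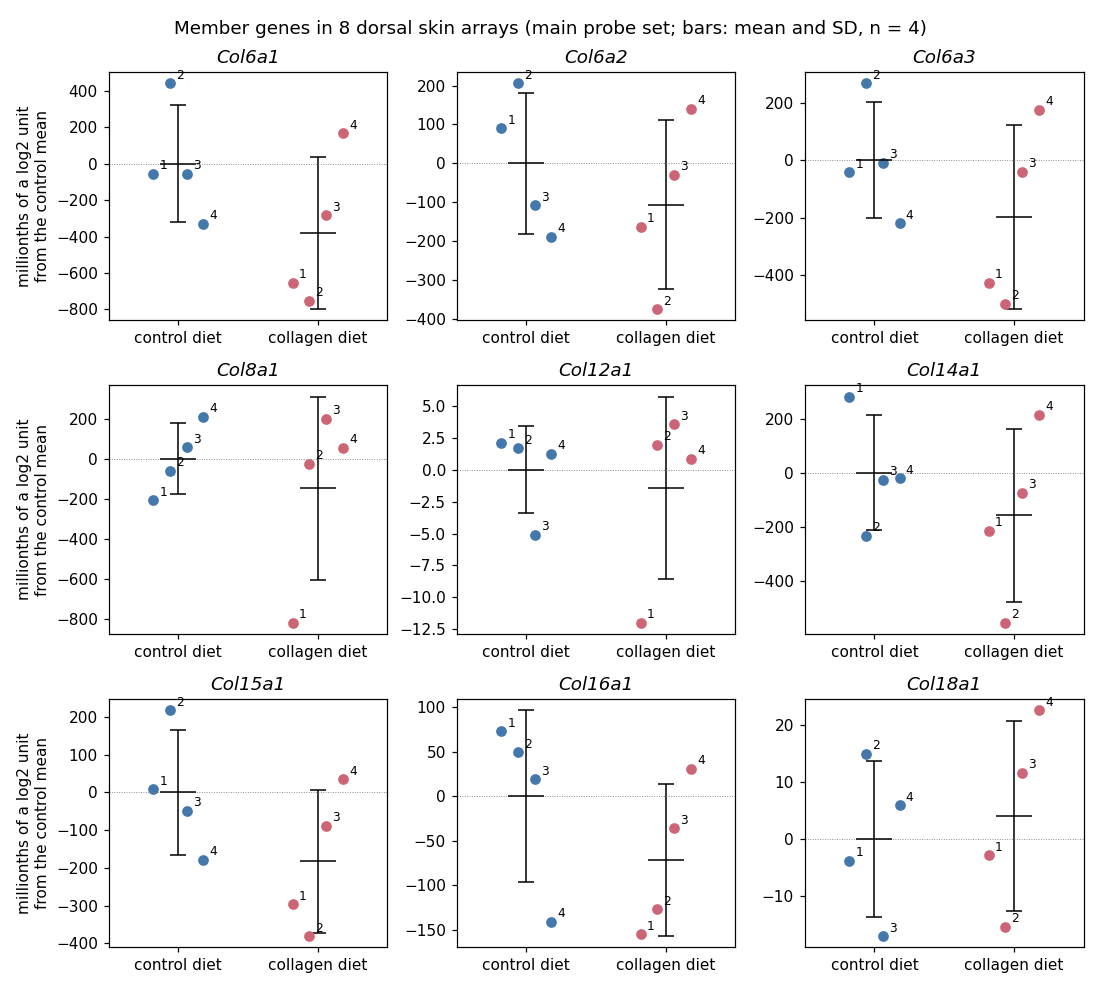
Values of the 9 genes in each array, as millionths of a log2 unit from the control mean, with array numbers beside the points and bars for the mean and SD (n = 4 per diet). Collagen 1 and collagen 2 are the 2 lowest points for Col6a1, Col6a3 and Col15a1, collagen 1 is the lowest for Col8a1 and Col12a1 (followed by control 3 in Col12a1), and the diets overlap in each panel; the vertical scales differ between panels.

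The collagen VI chains shared an order of arrays at the extremes. Col6a1 read 11.573054, 11.573552, 11.573055 and 11.57278 in control 1 to 4 and 11.572456, 11.572358, 11.572827 and 11.573278 in collagen 1 to 4. Collagen 1 and 2 lay below the lowest control, collagen 3 and 4 within the control range. The Col6a1 difference, collagen minus control, was -0.000381 ± 0.000253 (SE), with a 95% interval from -0.00099 to 0.000228 and an exact two-sided permutation p of 0.2 over the 70 assignments of arrays, whose smallest possible value is 0.0286. With each array left out in turn it ran from -0.000563 (without collagen 4) to -0.000233 (without control 2).

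Col6a3, whose chain is the longest of the heterotrimer and is cut at its C-terminus to give endotrophin, read 12.769843, 12.770153, 12.769876 and 12.769666 in the control arrays and 12.769457, 12.769385, 12.769844 and 12.770061 in the collagen arrays. As for Col6a1, control 2 was the highest array and collagen 2 the lowest, and collagen 4 was second highest. The Col6a3 difference was -0.000198 ± 0.000182 (exact permutation p = 0.314), or -9.74e-05 without collagen 2, -0.000108 without control 2, -0.000121 without collagen 1 and -0.000323 without collagen 4.

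Col6a2, the gene of the second short chain, had 2 probe sets. The brighter read 12.19446, 12.194575, 12.194261 and 12.194181 with the control diet and 12.194207, 12.193995, 12.194341 and 12.19451 with collagen. Its highest and lowest arrays were again control 2 and collagen 2, but collagen 1 lay inside the control range, and the difference was -0.000106 ± 0.000136 (exact permutation p = 0.514). It was -1.69e-05 without collagen 2, -3.75e-05 without control 2, -0.000169 without control 4 and -0.000188 without collagen 4. The dimmer Col6a2 probe set, at 11.30, had collagen 1, 2 and 3 below every control and a difference of -0.000386 ± 0.000258 (exact permutation p = 0.229). The probe sets followed each other over the arrays (Pearson r 0.93, exact permutation p = 0.000918, adjusted 0.00428 over the 14 pairs of probe sets of a same gene).

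Of the fibril-associated chains, Col14a1 and Col16a1 lay lower with collagen within their spread, and Col12a1 hardly varied. Col14a1 encodes a fibril-surface collagen that takes part in the control of fibril growth. It read 11.142356, 11.141841, 11.142048 and 11.142055 in the control arrays and 11.14186, 11.141521, 11.142001 and 11.142289 in the collagen arrays. Its highest array was control 1 rather than control 2, which was the lowest control, so the Col14a1 order was not that of collagen VI. The difference was -0.000157 ± 0.000184 (exact permutation p = 0.4), or -2.48e-05 without collagen 2, -6.32e-05 without control 1 and -0.000281 without collagen 4, and that of its second probe set, at 9.46, was -9.2e-05 ± 9.28e-05.

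Col16a1, found near the junction of epidermis and dermis, read 10.300887, 10.300863, 10.300833 and 10.300674 with control and 10.300659, 10.300688, 10.300778 and 10.300845 with collagen. Control 4 lay with collagen 1 and collagen 2 at the low end, and the other 5 arrays lay above them. The Col16a1 difference was -7.18e-05 ± 6.18e-05 (exact permutation p = 0.257), and ran from -0.000119 (without control 4) to -4.39e-05 (without collagen 1) with each array left out.

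Col12a1, a large fibril-surface collagen of tissues under tension, read 11.454828 in control 1, 2 and 4, 11.454821 in control 3, 11.454814 in collagen 1, and between 11.454827 and 11.45483 in the other collagen arrays. Collagen 1 was the lowest and control 3 the next, and the other 6 arrays lay within a few millionths of each other. The Col12a1 difference was -1.39e-06 ± 3.82e-06 (exact permutation p = 0.8), and without collagen 1 it was 2.14e-06, on the other side. The second Col12a1 probe set, at 8.88, also had collagen 1 lowest and control 3 next (r 0.78, exact permutation p = 0.0184, adjusted 0.0516), and r fell to -0.1 without those 2 arrays.

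Col8a1 encodes a short chain that forms hexagonal networks in the matrix under endothelium. Its brightest probe set read 9.050376, 9.050522, 9.050639 and 9.050793 in the control arrays and 9.049762, 9.050558, 9.050783 and 9.050636 in the collagen arrays. Collagen 1 stood below the other 7 arrays, and collagen 2, the low array of collagen VI, lay near the control mean. Collagen 1 also had the highest difference between the 3′ and 5′ Gapdh control probe sets (0.2906, against 0.2898 to 0.2904 in the other arrays) and the lowest array median (8.1929), and their part in the Col8a1 and Col12a1 readings was not tested. The Col8a1 difference of -0.000148 ± 0.000236 (exact permutation p = 0.743) became 7.67e-05 without collagen 1. A second Col8a1 probe set, at 8.38, gave the same order of extremes (r 0.98, exact permutation p = 0.000322, adjusted 0.00428; r 0.8 without control 1 and collagen 1).

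The multiplexins parted. Col15a1, the lowest of the members in deposited value, read 8.497227, 8.497437, 8.49717 and 8.49704 with control and 8.496921, 8.496838, 8.497129 and 8.497253 with collagen. Control 2 was its highest array and collagen 2 and 1 its lowest, as for Col6a1. The difference was -0.000183 ± 0.000121 (exact permutation p = 0.2), or -1.03 within-diet SD, the largest of the 9 on that scale beside the -1.02 of Col6a1. It ran from -0.000256 (without collagen 4) to -0.00011 (without control 2) with each array left out.

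Col18a1, the source of endostatin, read 10.614741, 10.61476, 10.614728 and 10.614751 with control and 10.614742, 10.614729, 10.614756 and 10.614767 with collagen. Its lowest arrays, control 3 and collagen 2, and its highest, collagen 4 and control 2, each came from both diets. The Col18a1 difference was 4.03e-06 ± 1.04e-05 (exact permutation p = 0.714), and turned to -1.69e-06 without control 3 and to -2.21e-06 without collagen 4. The second Col18a1 probe set, at 10.30, differed by 9.52e-06 ± 9.55e-06 and followed the first over the arrays (r 0.9, exact permutation p = 0.00283, adjusted 0.0099).

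The 4 member probe sets under 8 (1 of Col8a1, 2 of Col12a1 and 1 of Col14a1) had ranges from 1.61e-06 to 1.22e-05 and did not carry the pattern of the brighter probe sets in the case of Col8a1 (r 0.15) and Col12a1 (r 0.29 and -0.48). For Col14a1 the dimmest, at 7.60, had r 0.69 with the brightest (exact permutation p = 0.0599, adjusted 0.14). No detection call was used, so their distance from background is unknown.

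**Figure D2:**
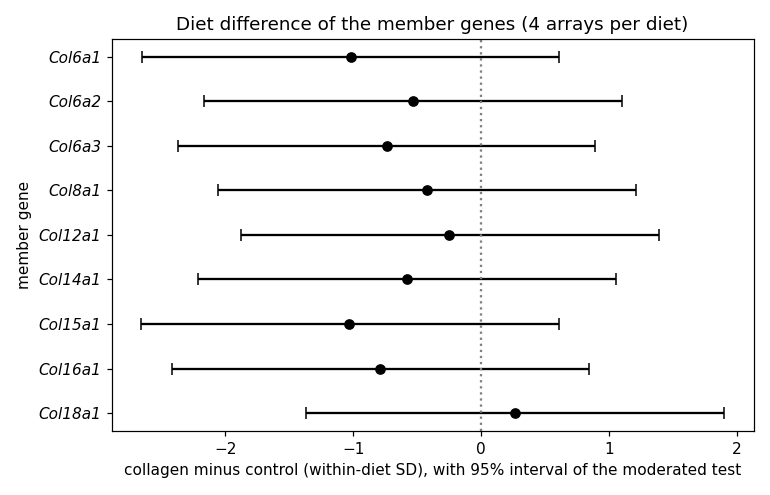
Collagen minus control for each of the 9 genes in within-diet SD, with the 95% interval of limma's moderated test (4 arrays per diet). The points run from -1.03 (Col15a1) to 0.263 (Col18a1), and each interval includes 0, reaching down to -2.66 (Col15a1) and up to 1.9 (Col18a1).

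The chains of collagen VI varied together from array to array. Col15a1 varied with them, and so did Col16a1 by Pearson r, though its rank correlations did not pass adjustment. Over the 8 arrays Pearson r was 0.98 for Col6a1 and Col6a3, 0.91 for Col6a1 and Col6a2, and 0.91 for Col6a2 and Col6a3. The exact permutation p over the 40320 pairings was 7.44e-05, 0.00228 and 0.00149, or 0.00119, 0.0137 and 0.0107 adjusted over the 36 member pairs, and Spearman's rho was 0.98, 0.9 and 0.88 (exact permutation p = 0.000397, 0.00456 and 0.00724). With the diet means taken out, r was 0.98, 0.92 and 0.91, so the relation did not rest on the diets. Without control 2 and collagen 2, the arrays farthest from the median of the first gene of each pair, r was 0.96, 0.77 and 0.79.

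Col15a1 lay with collagen VI as closely as its own chains did with each other. Its r was 0.99 with Col6a1, 0.94 with Col6a2 and 0.97 with Col6a3 (exact permutation p = 4.96e-05, 0.00102 and 9.92e-05; adjusted 0.00119, 0.00915 and 0.00119), and rho was 0.98, 0.95 and 0.93 (exact permutation p = 0.000397, 0.00114 and 0.00223). Within diets r was 0.98, 0.96 and 0.98, and without the 2 farthest arrays 0.97, 0.84 and 0.93. Only 0.0055% of all other genes had a higher r with Col6a1 than Col15a1 had. Col16a1 had r 0.85 with Col6a1 and 0.87 with Col15a1 (exact permutation p = 0.00764 and 0.00379, adjusted 0.0339 and 0.0195), and 0.83 with Col6a2 (p = 0.0155 by the exact permutation test, adjusted 0.0557). Its rho was 0.79 with Col6a1, 0.81 with Col6a2, 0.69 with Col6a3 and 0.86 with Col15a1. The adjusted exact permutation p of these was 0.112, 0.098, 0.25 and 0.0551.

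The other 4 members stood further off. Col14a1 had r between 0.13 and 0.63 with the other members, Col18a1 between 0.23 and 0.69, Col12a1 between 0.13 and 0.79, and Col8a1 between 0.08 and 0.79, with 0 of their pairs past an adjusted p of 0.05 by the exact permutation test and 0 at an unadjusted p under 0.05. The highest of these, 0.79 between Col8a1 and Col12a1 (exact permutation p = 0.0666), fell to 0.17 without control 1 and collagen 1, so it rested on those arrays. Col18a1, further along the chromosome of Col6a1 and Col6a2, had r 0.57 and 0.69 with them (exact permutation p = 0.142 and 0.059). With the diet means taken out, Col18a1 had r 0.76 and 0.78 with them, and 0.76 with Col6a3 and with Col15a1. Without control 2 and collagen 2 it had r 0.25 with Col6a1 and 0.47 with Col6a2. Without those arrays Col14a1 had r 0.84 with each of Col6a1 and Col6a2, against 0.44 and 0.59 within diets. Without collagen 1 and collagen 2, Col14a1 had r -0.19 with Col6a3.

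All 36 member pairs had a positive r, with a median of 0.54, and 9 passed an adjusted p of 0.05 by the exact permutation test. By Spearman's rho 6 passed that test, 0 of them with Col16a1. As background, the median r of a member with all other genes ran from -0.01 (Col16a1) to 0.07 (Col14a1), with 5th and 95th percentiles of -0.74 and 0.77 for Col6a1. The count of 9 pairs was 5 without collagen 2 and 4 without collagen 4, and in each case 1 of the 3 collagen VI pairs passed, with a lowest r among the 3 of 0.86 and 0.89. Without collagen 1, 24 of the 36 pairs were positive and 7 passed. It was 5 after median centring, where 26 of the 36 pairs were positive and 1 of the 3 collagen VI pairs passed, with r of at least 0.8 in those 3. Quantile normalization gave Col6a3 and Col12a1 equal values in all arrays, and of the 21 pairs left 16 were positive, 0 passed the exact permutation test and 1 had an unadjusted p under 0.05.

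**Figure D3:**
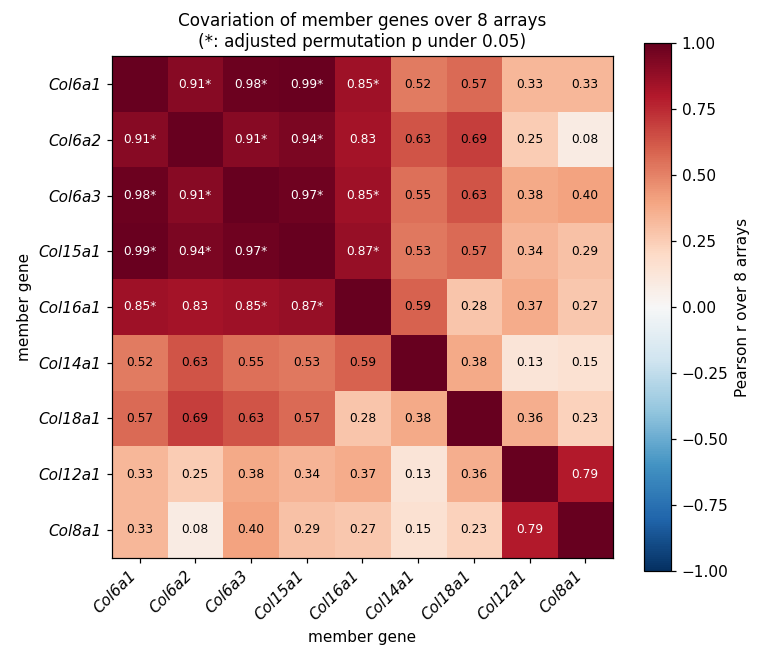
Pearson r over the 8 arrays for each pair of the 9 genes, with a star where the permutation p adjusted over 36 pairs is under 0.05. The block of Col6a1, Col6a2, Col6a3, Col15a1 and Col16a1 holds all 9 starred pairs, with r from 0.85 to 0.99, and the lowest r is 0.08, between Col6a2 and Col8a1.

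A collagen VI score, the mean z value of its 3 genes, was 0.43, 1.43, 0.13 and -0.5 in control 1 to 4 and -0.98, -1.52, 0.04 and 0.97 in collagen 1 to 4. Among 11588 genes at or above the median level, the 8 with the highest r to this score were Gpx7 (0.98), Pml (0.978), Col5a1 (0.971), Zkscan17 (0.966), Tspan3 (0.962), Miat (0.959), Zfp646 (0.956) and Crtap (0.955). They were picked for this likeness, so r has no test here. Of 18184 genes outside the 9, 0.665% had r over 0.9 with the score and 0.544% had r under -0.9. For the mean z value of all 9 members, the 8 most alike were App (0.985), Id3 (0.982), Zkscan17 (0.98), Egfl7 (0.974), Tnmd (0.963), Trim21 (0.959), Spats2l (0.959) and Pxdn (0.958). None of these genes passed limma's test for diet, with an adjusted p of 0.999 each.

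The genes beside Col6a1 and Col6a2 on chromosome 10 are given for comparison, with r and rho to the collagen VI score over the 8 arrays as a description. Pcbp3, next to Col6a1, had r 0.27 and rho 0.19, and Slc19a1, the folate carrier gene, had r -0.48 and rho -0.55. Ftcd, on the other side of Col6a2 and at a low value of 7.66, ran opposite to the score, with r -0.92 and rho -0.9, and r -0.87 without control 2 and collagen 2. Pofut2, beyond Col18a1, had r 0.07 and rho -0.12. Without control 2 and collagen 2, r was -0.76 for Pofut2, -0.02 for Pcbp3 and -0.45 for Slc19a1.

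Other matrix genes were read as 7 lists, of which no gene passed limma's adjusted test. Of all genes 47.0% lay lower with collagen. Of 11 fibril-forming collagens 9 lay lower with collagen (median difference -0.64 within-diet SD), of 18 basement membrane and junction proteins 15 (-0.66), and of 16 measured collagen processing enzymes 14 (-0.84), against a median of 0.05 over all genes. Of 8 matrix proteases 6 lay lower (-0.78). Of 15 fibril surface partners 8 lay lower (-0.06), of 10 measured collagen receptors 3 (0.37), and of 10 other chains of the member families 4 (0.08).

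The 3 genes of smallest p in each list, which are its extremes, are named next. Cspg4 and Itga1, which encode cell surface proteins that bind collagen VI or collagens, differed by 0.000364 ± 0.000197 and 4.15e-05 ± 2.31e-05, and Antxr2, a collagen VI receptor, by -8.76e-05 ± 6.14e-05. Ogn and Fmod, leucine-rich proteoglycans of the fibril surface, differed by -0.000849 ± 0.00044 and 4.81e-05 ± 2.71e-05, and Fn1 by 7.79e-05 ± 7.63e-05. Nid1, Col4a4 and Col17a1 of the basement membrane zone differed by -4.64e-05 ± 2.46e-05, -0.00031 ± 0.00016 and 4.27e-06 ± 2.22e-06. Col8a2, the partner chain of Col8a1, differed by -3.7e-05 ± 1.19e-05 (unadjusted p = 0.0187 by limma, adjusted 0.999), and Col19a1 and Col9a3 by 7.85e-07 ± 2.92e-07 and -1.52e-06 ± 8.96e-07.

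Among fibril-forming chains the 3 of smallest p were Col2a1 (-1.08e-06 ± 4.09e-07), Col5a1 (-0.000959 ± 0.000559) and Col1a1 (-0.00288 ± 0.00171). Col2a1, the cartilage collagen, lay at a dim 7.71 and was the only one of them without overlap between the diets. Of all genes 0.671% had no overlap with collagen lower, and 2.01% had none in either direction. Loxl1 and P4ha2, which encode enzymes of crosslinking and hydroxylation, and Pcolce, whose product enhances the trimming of procollagen by another enzyme, differed by -0.000128 ± 5.51e-05, -0.0005 ± 0.000223 and -0.000217 ± 0.000111. The proteases Mmp2, Ctsb and Mmp9 differed by -7.85e-05 ± 4.27e-05, -1.69e-05 ± 9.41e-06 and -0.000728 ± 0.00051.

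Some of these lists lay close to the collagen VI score over the arrays, in a description of 16 lists with no test. The score of the collagen processing enzymes had r 0.96 (rho 0.95), and 0.9 without control 2 and collagen 2. That of the basement membrane list had r 0.95 (rho 0.98), and 0.91 without those arrays. That of the fibril-forming collagens had r 0.94 (rho 0.88), and 0.93 without them. With the diet means taken out the 3 values were 0.95, 0.94 and 0.92, so in the deposited values these matrix genes and collagen VI were high and low in the same arrays of each diet. No list was scored after quantile normalization or median centring, which lowered the number of member pairs past the adjusted test. Over all 8 arrays r was lower for fibril surface partners (0.52), receptors (0.53), proteases (0.58) and other chains (0.34). Without control 2 and collagen 2 these 4 values were 0.7, 0.73, 0.8 and 0.33, and within diets 0.55, 0.73, 0.49 and 0.36.

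Markers of fibroblasts and of macrophages lay close to collagen VI as well. The share of all genes lower with collagen, 47.0%, stands beside each count of lower markers here and below. Of 8 measured fibroblast markers 7 lay lower with collagen, and their score, between 0.02 and 0.68 in control and between -1.37 and 0.85 in collagen arrays, had r 0.92 with the collagen VI score (rho 0.83; 0.9 within diets, 0.88 without control 2 and collagen 2). All 7 macrophage and Langerhans cell markers lay lower, with scores between -0.26 and 0.98 in control and between -1.51 and 0.73 in collagen arrays, and r was 0.88 (rho 0.83; 0.86 within diets, 0.8 without those arrays). All 7 endothelial markers lay lower, though Tie1 by only -3e-08 ± 3.07e-05, and their score had r 0.77 (rho 0.76, and 0.44 without those arrays). Single endothelial markers differed in r with the collagen VI score, from 0.93 for Kdr to 0.19 for Pecam1 and 0.18 for Tek. In the fibroblast list r was 0.88 for Thy1 but 0.32 for Pdgfrb. The summed levels of the fibroblast list ran from 90.9729 to 90.9763 in control and 90.9703 to 90.9754 in collagen arrays, those of the macrophage list from 78.5462 to 78.5512 and 78.543 to 78.5508, and those of the endothelial list from 62.9669 to 62.9672 and 62.9665 to 62.967. No marker was at 0, but neither was any other deposited value, so this does not show that a marker was expressed. The part of these cell types in the covariation was not tested.

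Over all 8 arrays the other marker lists had r nearer to 0. Keratinocyte markers had r -0.55 (2 of 8 lower with collagen), adipocyte markers 0.32 (3 of 5), skeletal muscle markers 0.16 (12 of 13), smooth muscle and pericyte markers 0.12 (3 of 5), melanocyte markers -0.2 (0 of 5) and Schwann cell markers 0.17 (2 of 3). Without control 2 and collagen 2 these 6 values were -0.22, 0.49, 0.01, -0.4, 0.03 and -0.74. The difference between the 3′ and 5′ Gapdh control probe sets, a measure of RNA integrity, ran from 0.2898 to 0.2906 and had r -0.23 with the score (rho -0.02). The array medians had r 0.46 (rho 0.62), and 0.78 without control 2 and collagen 2. Their part in the covariation was not tested.

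**Figure D4:**
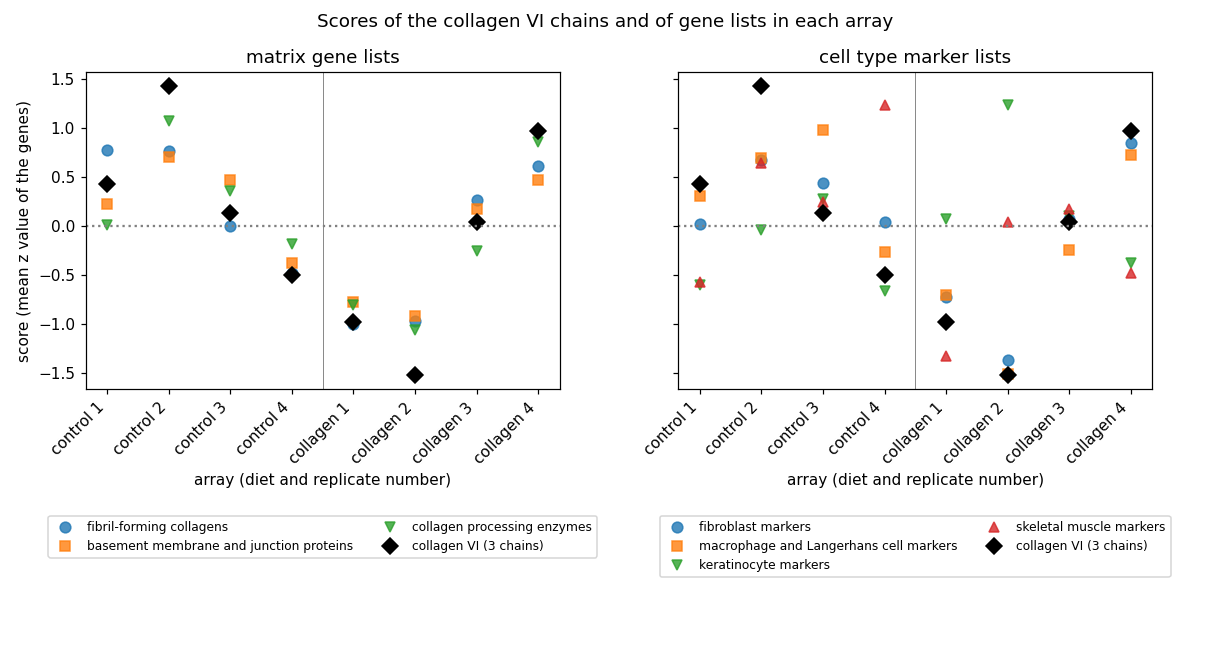
Scores of the collagen VI chains (black) and of 7 gene lists in each array, where a score is the mean z value of the genes and the vertical line parts the diets. The matrix lists, fibroblast markers and macrophage markers dip in collagen 1 and collagen 2 with collagen VI, whose scores there are -0.98 and -1.52, while keratinocyte markers are highest in collagen 2 (1.24) and muscle markers in control 4 (1.24).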

How the data were processed

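Total RNA of powdered frozen dorsal skin was labelled with biotin by a 3′ in vitro transcription kit and hybridised to 1-colour arrays, per the labels' protocols. The authors deposited log2 values, 1 column for each array; R 2.7.2 is listed per the submitters' processing notes. How probes were summarised and normalized is not stated there, and the values, from 6.56 to 14.46, were taken to be log2. After 64 control probe sets were left out, 34945 of 45037 had 1 symbol in the platform annotation, 932 several and 9160 none; 34741 matched RefSeq by Entrez identifier and 0 symbols changed.

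The diets were compared by a moderated test (limma 3.58.1, R 4.3.3, two-sided, no covariate), with Benjamini-Hochberg adjustment over 18193 genes and a threshold of 0.05. Correlations of member pairs were tested over all 40320 pairings of arrays; those with a score over the members have no test. Arrays were the replicates. The p-values of limma weigh a diet difference against the spread between arrays, and permutation p-values compare a result with rearrangements of the arrays. Both take the arrays as independent, which the labels do not settle. The limma test was tested on simulated data. Figures were drawn with matplotlib 3.10.9.

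The members and lists were chosen with earlier results of these data known. Named genes were the 9 members, the 8 genes most alike to each score and the 3 of smallest p in each matrix list; neighbouring genes were chosen by position. The labels do not say whether replicate numbers pair the arrays, and the numbers were not taken as pairs. Alternatives were 2 scalings, a filter on dim probe sets, the mean of a gene's probe sets, another variance model, array weights, a Gapdh covariate, the replicate number as a block and each array left out.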

Additional observations from a re-analysis of the deposited data

Results flagged for a closer look

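Among 36 groups of 4 arrays (18 member probe sets in each diet), 1 had an array far from the others. In the main Col12a1 probe set, control 3 read 11.454821 against 11.454828 in the other 3 control arrays, and its gap was 0.88 of the group's range, above the critical value of 0.829. Chance flags about 1 in 20 such groups.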

How the results depend on the processing

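No member passed an adjusted p of 0.05 by limma under any of the 16 alternatives, and 0 genes passed under each, with 72 (median centring) to 1553 (without collagen 4) at an unadjusted p under 0.05. The lowest unadjusted p of a member by limma was 0.0426 (adjusted 0.572), for Col6a1 without collagen 4. Of 144 recomputed member differences, 132 kept their direction, 10 reversed and 2 became 0. Part of the 132 was fixed in advance. The dim filter, the other variance model and the replicate block leave a member's difference as it is. So does the mean of probe sets for genes with a single one. Quantile normalization gave 0 for Col6a3 and Col12a1, 1.18e-05 for Col15a1, -1.34e-05 for the second Col18a1 probe set, 0 for 1 dim Col12a1 probe set, and 5 members lower with collagen. Col12a1 turned to 5.38e-05 after median centring, 7.68e-07 as the mean of its probe sets, 7.29e-07 with the Gapdh covariate and 1.85e-06 with array weights, and Col8a1 to 8.54e-05 with the Gapdh covariate. With each array left out, differences ran from -0.000264 to 7.67e-05 for Col8a1, from -3.09e-06 to 2.14e-06 for Col12a1 and from -2.21e-06 to 1.05e-05 for Col18a1, and the members lower with collagen from 6 to 9. The differences of the other 6 members stayed below 0 with each array left out, from -0.000563 (Col6a1) to -1.69e-05 (Col6a2). The pairs of members past the adjusted permutation test were 0 of 21 after quantile normalization and 5 of 36 after median centring, and ran from 4 to 11 with 1 array left out. The cause of these changes was not tested.

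The replicate number as a block left the differences as they were and changed no call. Col6a1 stayed at -0.000381 with an SE of 0.000328 (adjusted p = 0.917 by limma), and 1109 genes had an unadjusted p under 0.05. Same-numbered arrays had correlations of 0.36, 0.05, 0.22 and 0.01 in their deviations from the diet means. Of the 4 collagen arrays 2 correlated best with the control array of their own number. These values do not settle whether the numbers pair the arrays. The numbers were not taken as pairs because the labels do not name them as such. Signal over background is unknown, which limits the probe sets under 8.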
